A study of Mus musculus with 4 samples.

Results

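The Ms4a genes encode membrane proteins that span the membrane 4 times, of the family that includes CD20 of B cells (Ms4a1) and the beta chain of the mast cell IgE receptor (Ms4a2). They lie side by side in 1 gene cluster, and their members differ in the blood cells that express them. Several are known from macrophages, among them Ms4a7, which is used as a marker of macrophages in several tissues, and Ms4a8a, which was described in alternatively activated and tumour-associated mouse macrophages. The members described here are every gene whose deposited symbol starts with Ms4a. There were 8 of 11754 symbols, with 18 of 30627 tags. Ms4a7 was set against its relatives because its higher level on day 21 was already known, so the difference between the groups is given below as a description for all 8 members, with no p-value. Where the text says whether a member was called in the fit over all genes, nothing is read from it. Another 13 Ms4a genes of RefSeq, Ms4a1 and Ms4a2 among them, were not analysed here.

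Serial analysis of gene expression (SAGE) was run on total RNA of alveolar macrophages, which clear particles and microbes from the air sacs of the lung. The 2 day 21 metastasis libraries came from wild-type BALB/c mice that had received cells of the mouse hepatocellular carcinoma line BNL into a vein 21 days earlier and had lung metastases. The 2 untreated libraries came from wild-type BALB/c mice with no injection and no lung metastasis. No source used here gives the sex, the age or the number of mice per library, so the spread between the libraries of a group may be technical. No sham injection is described, so injection and metastasis cannot be told apart.

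The libraries held 1783814 and 1630776 tags on day 21 and 1962569 and 2198563 tags without treatment. The protease cathepsin D (Ctsd) made up 36.4% and 35.5% of the tags on day 21, against 24.9% and 22.4% in untreated mice. Levels are CPM, tags scaled to 1000000 per library with TMM factors, a scaling that reduces the weight of such dominant genes. They are relative to the whole library, so more cells of a type and more RNA per cell cannot be told apart. Of 15 alveolar macrophage markers, 14 had counts and 12 were tested, with 2 of the 12 log2 differences above 0 and a median of -0.73 (-0.07 over all tested genes). Of all tested genes, 0.735% were called in either direction. In the edgeR fit 0 of the 12 were called in either direction (4 at an unadjusted p under 0.05, and 0 called by DESeq2), while without untreated replicate 2 Chil3 was called higher and Krt79 lower. The list summed to 1911 and 4365 CPM on day 21, against 2012 and 3767 CPM in untreated mice, and Chil3, a chitinase-like protein, made up 1047 and 2777 CPM of it on day 21, against 329.3 and 1194 CPM in untreated mice. The keratin gene Krt79 was at 90.7 and 20.7 CPM on day 21, against 328.8 and 210.2 CPM in untreated mice. Fabp4 was listed at 0 in every library, and Marco had 0 and 0 counts on day 21, against 2 and 0 counts in untreated mice.

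A SAGE tag is read next to a CATG, the cut site of NlaIII, and is by design the one nearest the 3' end of the transcript. It counts a transcript once, whatever its length. The tags that carried most of the Ms4a counts are shown 5' to 3', because the choice of site decides what was counted. Capitals mark the NlaIII site, followed by the 21 deposited bases.
Ms4a7: CATGcgtctacagcttggcaccaag
Ms4a8a, site nearest the 3' end: CATGctcttcatcacagacatcagt
Ms4a8a, next site: CATGatcaccaacctcttcagccac
Ms4a6d: CATGaaaacaagtcatctcttatga
Ms4a6b: CATGtgtgctgtgatggtgttgagt
Ms4a6c: CATGtgtgctgtgacagtgttggct

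All 813 counts of Ms4a7 came from 1 tag. Matched to GENCODE M21 transcripts on GRCm38, it lay at chr19:11333330-11333354 on the minus strand, in exon 2 of 6 of Ms4a7-202, the transcript with the deposited accession. There the NlaIII site holds the start codon of the protein, so the tag covers the first bases of the coding sequence and the last base of the 5' UTR. The site occurred in 4 of the 5 annotated transcripts of Ms4a7 but was the one nearest the 3' end in only 1 of them, Ms4a7-202, 760 bases from its end. The longer Ms4a7-201 and Ms4a7-203 hold the same site 1184 bases from their 3' end and 2 further sites in the 3' UTR, 194 and 160 bases from the end, whose tags were not analysed here. The level of Ms4a7 is therefore that of transcripts cut at the site in exon 2, and transcripts cut at the 3' UTR sites are not part of it.

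The tags of the relatives lay in other parts of their transcripts. Of the 253 counts of Ms4a8a, 164 came from the site nearest the 3' end (chr19:11070768-11070792, minus strand, exon 5 of 7) and 79 from the next one (chr19:11076336-11076360, exon 3 of 7), both in the coding sequence. Ms4a6d had 127 of its 129 counts at its last site, in the 3' UTR (chr19:11586661-11586685, minus strand, exon 7 of 7). The counted tags of Ms4a6b and Ms4a6c lay in the coding sequence of exon 3 of 7 on the plus strand, at chr19:11521682-11521706 and chr19:11472404-11472428, the 9th of 10 and the 8th of 9 sites from the 3' end of the transcripts with the deposited accessions. Each was the last site only in 1 annotated transcript with a retained intron. These close paralogs share 17 of 21 bases of that tag. Counted from the first base after CATG, with Ms4a6b first, the tags differ by T11C, G12A, A19G and G20C, so the 2 genes could be told apart. Of the 18 tags, 17 matched transcripts of 1 gene, and the remaining one, listed under Ms4a6c with 0 counts, matched Ms4a6b as well.

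**Figure D1:**
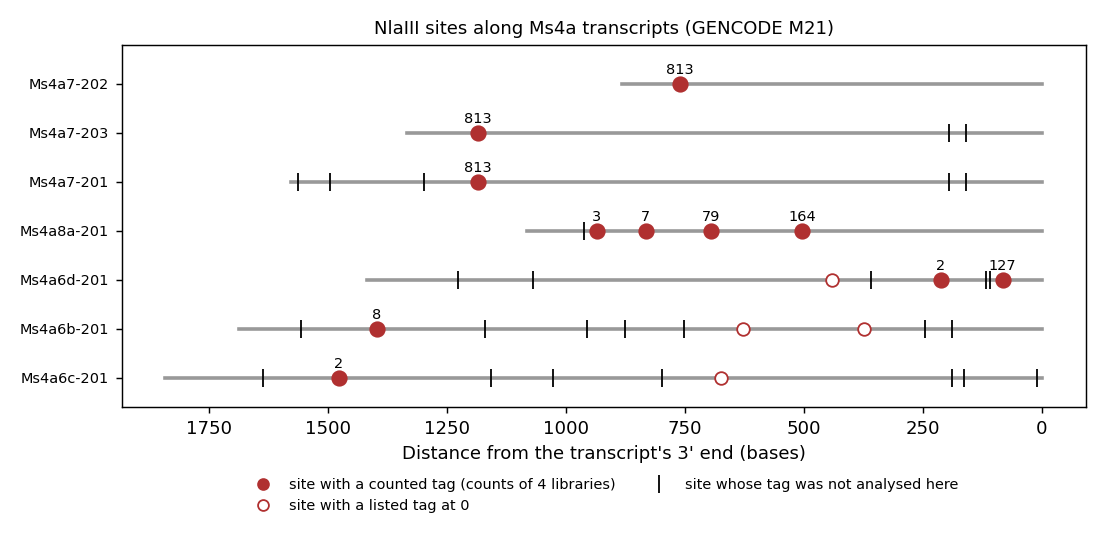
NlaIII sites along Ms4a transcripts, by distance in bases from the 3' end. Filled circles are sites with a counted tag, with its counts summed over the 4 libraries, open circles are sites whose tag is listed at 0, and ticks are sites whose tag was not analysed here. The 813 counts of Ms4a7 belong to 1 tag that 3 of the transcripts drawn share.

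Ms4a7 was by far the most counted Ms4a gene on day 21. Replicates 1 and 2 of the day 21 metastasis group gave 424 and 342 counts of it, against 30 and 17 counts in untreated mice. On the CPM scale its level was 242.0 and 243.7 CPM on day 21, against 14.7 and 6.95 CPM in untreated mice. Both day 21 libraries were above both untreated libraries, and the lower day 21 library was at 16.4 times the higher untreated one. The mean was 242.8 ± 1.20 CPM on day 21, against 10.8 ± 5.50 CPM in untreated mice (SD, n = 2 each), a log2 difference of 4.49 ± 0.73 (SE) or 22.4-fold. Without untreated replicate 1 the log2 difference was 5.12, and Ms4a7 was then not past the threshold used over all genes. By number of counts, Ms4a7 ranked 300th of 5360 genes and 314th of 4779 genes in the day 21 libraries, and 1665th of 5650 and 2480th of 5894 genes in the untreated libraries.

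Ms4a8a was the second most counted member on day 21. It had 64 and 82 counts in the day 21 metastasis libraries, against 29 and 78 counts in the untreated ones. Its level was 36.5 and 58.4 CPM on day 21, against 14.2 and 31.9 CPM in untreated mice. The groups did not overlap, but the lower day 21 library stood at only 1.15 times the higher untreated one, and the 2 untreated libraries were farther apart than that. The means were 47.5 ± 15.5 CPM on day 21, against 23.1 ± 12.5 CPM in untreated mice (SD, n = 2 each), with a log2 difference of 1.03 ± 0.70 (SE). Without untreated replicate 1 the log2 difference was 0.58, and without untreated replicate 2 it was 1.76.

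Ms4a6d, a myeloid member, was at 24.5 and 33.5 CPM on day 21, against 6.38 and 10.6 CPM in untreated mice. These values rest on 43 and 47 counts on day 21, against 13 and 26 counts in untreated mice. Both day 21 libraries were again above both untreated ones, with 2.31 times between the nearest of them. The log2 difference was 1.76 ± 0.74 (SE), between that of Ms4a7 and that of Ms4a8a.

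The other 5 members had few counts or none. Ms4a6b had 3 and 5 counts on day 21 and was listed at 0 in both untreated libraries. No library holds a count of 1, so each tag listed at 0 can stand for 1 read. With its 2 listed tags, 0 counts of Ms4a6b allow up to 5.69 counts per library (probability 5%), more than either day 21 library had. On the CPM scale this limit was 2.79 and 2.33 CPM in the untreated libraries, against levels of 1.71 and 3.56 CPM on day 21. Only day 21 replicate 2 was above the limit, on 5 counts, so no difference is read at this depth. Ms4a6c had 2 and 0 counts on day 21 and was listed at 0 in untreated mice, with the same limit. Ms4a3, a gene of granulocyte and monocyte progenitors, and Ms4a4c and Ms4a4d were listed at 0 in every library, which allows up to 6.43, 4.74 and 5.69 counts per library for their 3, 1 and 2 listed tags.

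**Figure D2:**
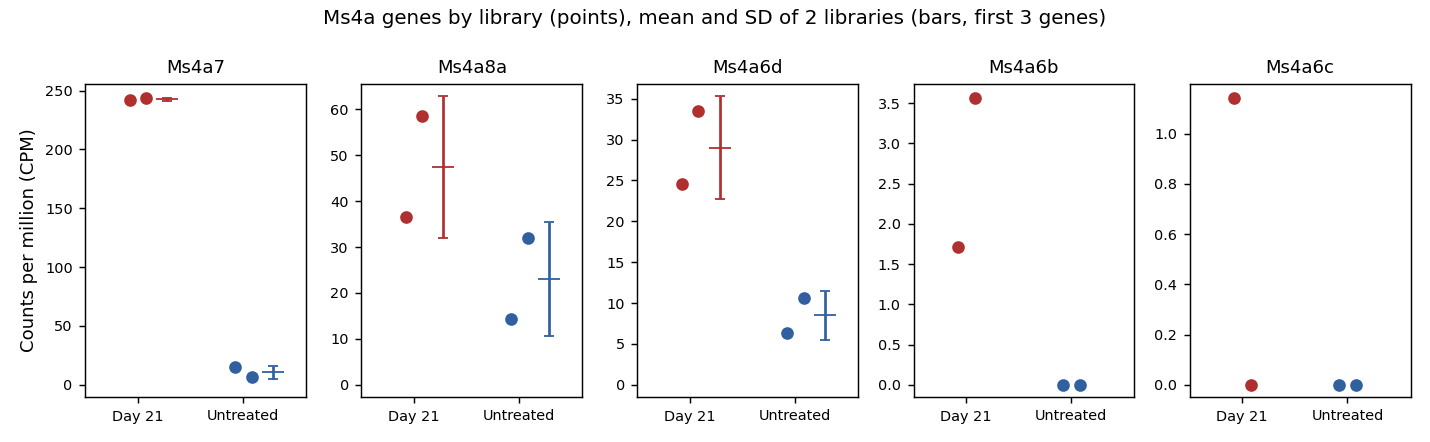
Level of the 5 counted Ms4a genes in CPM, with a separate scale for each gene. Points are libraries, day 21 metastasis on the left and untreated on the right, and bars are the mean and SD of the 2 libraries for the first 3 genes. Ms4a7 stood at 242.0 and 243.7 CPM on day 21, against 14.7 and 6.95 CPM in untreated mice.

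Of the 8 members, 3 passed the filter on low counts (Ms4a7, Ms4a8a and Ms4a6d). In the edgeR fit across 2993 genes, at an adjusted p under 0.05, 1 of these 3 was called, Ms4a7, beside 0.668% of all tested genes called higher on day 21, 0.0668% called lower and 0.735% called in either direction. All 3 had both day 21 libraries above both untreated ones, beside 15.2% of all tested genes. Ms4a7 was chosen from this contrast, so neither count is a result about the family.

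The order of the mean levels differed between the groups. On the CPM scale the day 21 order was Ms4a7, Ms4a8a and Ms4a6d in both libraries. Ms4a6b and Ms4a6c were below them, with too few counts to be ordered. Neither the values of Ms4a7 and Ms4a8a nor those of Ms4a8a and Ms4a6d overlapped between the day 21 libraries. In untreated mice the order of the mean levels was Ms4a8a, Ms4a7 and Ms4a6d, at 23.1 ± 12.5, 10.8 ± 5.50 and 8.51 ± 3.01 CPM (SD, n = 2 each). Across the libraries the values of Ms4a8a overlapped with those of Ms4a7, and those of Ms4a7 with those of Ms4a6d. Within untreated replicates 1 and 2, Ms4a7 over Ms4a8a was 1.03 and 0.218, and Ms4a7 over Ms4a6d was 2.31 and 0.654. The 2 libraries gave different orders, so none is read for these neighbours. The values of Ms4a8a and Ms4a6d did not overlap.

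Ratios within a library need no scaling between libraries. Ms4a7 had 6.63 and 4.17 times the counts of Ms4a8a in the day 21 metastasis libraries, with exact 95% intervals of 5.08 to 8.76 and 3.27 to 5.37. In the untreated libraries the ratio was 1.03 (0.600 to 1.79) and 0.218 (0.121 to 0.372). Ms4a7 was chosen for being higher on day 21, so the gap between these ratios is a description. These intervals cover counting error only, since PCR copies were not told apart. Ms4a7 had 9.86 and 7.28 times the counts of Ms4a6d on day 21, against 2.31 and 0.654 times in untreated mice. The ratio of the 2 relatives, Ms4a8a over Ms4a6d, was 1.49 (0.996 to 2.24) and 1.74 (1.20 to 2.55) on day 21, against 2.23 (1.12 to 4.67) and 3.0 (1.90 to 4.87) in untreated mice. Here every day 21 interval overlapped with every untreated one.

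As a share of all Ms4a counts, Ms4a7 took 79.1% and 71.8% on day 21, of 536 and 476 counts, with exact 95% intervals of 75.4% to 82.5% and 67.6% to 75.8%. In untreated mice it took 41.7% and 14.0%, of 72 and 121 counts, with intervals of 30.2% to 53.9% and 8.40% to 21.5%. Ms4a8a took 11.9% and 17.2% on day 21, against 40.3% and 64.5% in untreated mice. The untreated libraries differed from each other by more than counting error, while Ms4a8a held the largest share in 1 of them and Ms4a7 was level with it in the other. With 2 libraries a group, an exact permutation test of such a share cannot reach a threshold of 0.05, and none was run.

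**Figure D3:**
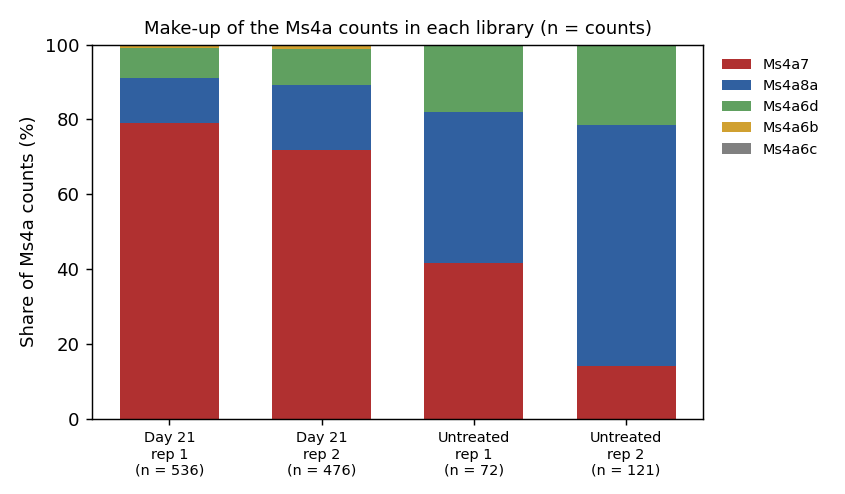
Make-up of the Ms4a counts, in percent, in each day 21 metastasis and untreated library, with the number of counts under each bar. Ms4a7 took 79.1% and 71.8% on day 21, against 41.7% and 14.0% in untreated mice.

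The tags of Ms4a8a allowed a comparison of sites within a gene, which was not used in choosing the members. The site nearest the 3' end gave 60.9% and 57.3% of the Ms4a8a counts on day 21, against 86.2% and 67.9% in untreated mice. The next site gave 35.9% and 35.4% on day 21, against 13.8% and 29.5% in untreated mice. The exact 95% intervals of the first site overlapped between groups for untreated replicate 2 (56.4% to 78.1%) with both day 21 libraries (47.9% to 72.9% and 45.9% to 68.2%). Untreated replicate 1 had only 29 counts of the gene, and its interval of 68.3% to 96.1% overlapped with that of day 21 replicate 1 only. Over all genes, the last site held 84.1% and 77.4% of the counts on day 21, against 78.1% and 72.3% in untreated mice.

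Both main tags of Ms4a8a had a higher mean level on day 21, by different amounts. The tag nearest the 3' end was at 22.3 and 33.5 CPM on day 21, against 12.3 and 21.7 CPM in untreated mice. The next tag was at 13.1 and 20.7 CPM on day 21, against 1.96 and 9.40 CPM in untreated mice. On the CPM scale neither tag had overlapping groups, beside 15.2% of all tested genes that lay higher on day 21 without overlap. That share is over genes with their tags summed, and none was made over single tags. For the tag nearest the 3' end the nearest libraries were at 22.3 and 21.7 CPM. Without TMM factors these libraries, day 21 replicate 1 and untreated replicate 2, were in the other order, so the groups overlapped. Untreated replicate 1 was the lowest library for both tags. Ms4a6d had no such split, with the site nearest the 3' end at 100% and 95.7% of its counts on day 21 and at 100% in both untreated libraries.

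**Figure D4:**
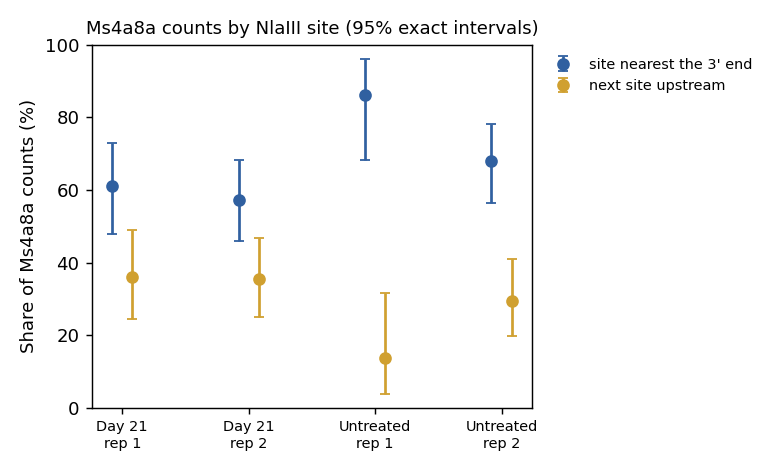
Share of the Ms4a8a counts, in percent, at the last NlaIII site and at the next one upstream, in each library. Points are shares and bars are exact 95% intervals, which cover counting error only. The share at the first site was 60.9% and 57.3% on day 21, against 86.2% and 67.9% in untreated mice.

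The 5 tested genes closest to Ms4a7 were taken by the smallest root mean square difference between profiles of log2(CPM + 1), each centred on its own mean, over the 4 libraries. Cxcl16, a transmembrane chemokine, was the closest, with a difference of 0.18. It was at 372.7 and 374.1 CPM on day 21, against 16.7 and 10.2 CPM in untreated mice, so it shared with Ms4a7 day 21 libraries of nearly equal level and a lower value in untreated replicate 2. Ecm1, extracellular matrix protein 1, at a difference of 0.52, also had counts in every library. The other 3 were Fcgr2b, the inhibitory Fc receptor for IgG, Apobec1, a cytidine deaminase that edits RNA, and Cox6a2, a subunit of cytochrome c oxidase. These 3 were listed at 0 in both untreated libraries, so their difference from Ms4a7 depends on the 1 that is added to the CPM, and no order is read from it. The relatives were farther off, at 1.51 for Ms4a6d and 1.85 for Ms4a8a, where the median tested gene was at 2.32. These profiles hold 4 libraries in 2 groups, so they are close for any gene with a like difference between the groups.

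**Figure D5:**
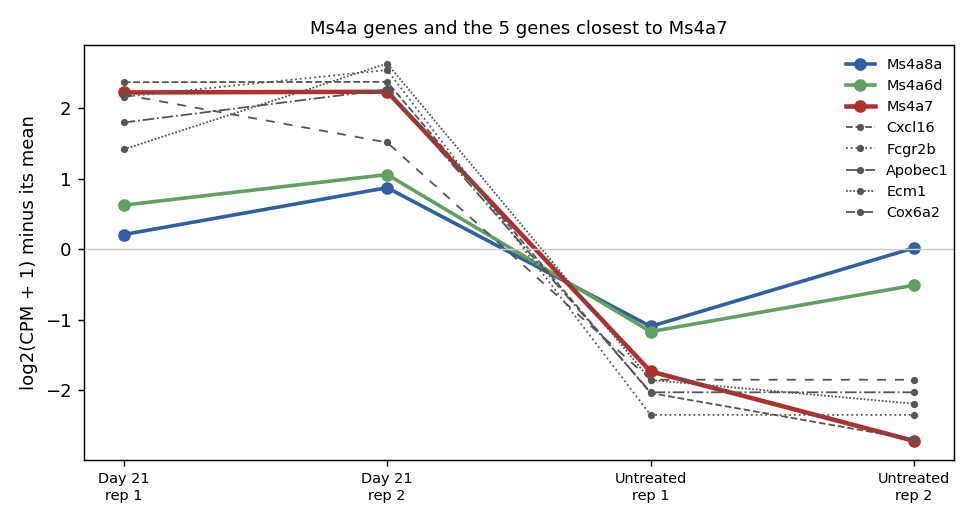
Level as log2(CPM + 1), minus its mean over the 4 libraries, for Ms4a7, Ms4a8a, Ms4a6d and the 5 genes closest to Ms4a7, in the day 21 metastasis and untreated libraries. Cxcl16 and Ecm1, with differences of 0.18 and 0.52, run near Ms4a7, the untreated values of Fcgr2b, Apobec1 and Cox6a2 depend on the added 1, and Ms4a6d and Ms4a8a, at 1.51 and 1.85, are flatter.

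Proteins linked to the family were looked at next. Tmem176a and Tmem176b, which are related to the CD20-like proteins, had 9 and 9 counts and 4 and 6 counts on day 21, and both were listed at 0 in untreated mice. With their 5 and 2 listed tags, 0 counts allow up to 7.63 and 5.69 counts per library (probability 5%). Tmem176b was below its limit in day 21 replicate 1, so no difference is read for it. Neither passed the filter on low counts. Of 10 genes known as partners of Ms4a proteins or as signalling genes of the mast cell IgE receptor, 8 were analysed and 5 tested. Of these 5, 1 was called higher and 0 lower, beside 0.668% of all tested genes called higher and 0.0668% lower. The median log2 difference was -0.53 (-0.07 over all tested genes). The 1 called gene was Trem2, a lipid receptor of macrophages that is linked to MS4A4A in human, at 33.7 and 137.5 CPM on day 21 against 4.91 and 10.6 CPM in untreated mice. Its log2 difference was 3.44 ± 0.80 (SE, edgeR adjusted p = 0.0378). With 10 and 26 counts in untreated mice, Trem2 passed the filter on low counts only through its day 21 counts. The list was made with earlier results of these data known, and Trem2 is counted again among the macrophage markers below. Its call therefore supports nothing. Trem2 was above the untreated libraries in both day 21 libraries, as were 15.2% of all tested genes. The adjusted p was 0.296 with total counts only, 0.138 with tags matching 1 gene, 0.108 with the tag of most counts, 0.850 without untreated replicate 1 and 0.9998 without day 21 replicate 2, where its log2 difference was 2.13. Over all 12 alternatives the adjusted p ran from 0.00193 to 0.9998. Clec7a, the fungal receptor dectin-1, which associates with MS4A4A in human macrophages, was at 5.14 and 9.26 CPM on day 21, against 26.5 and 49.5 CPM in untreated mice. It was not past the threshold (log2 difference -2.40 ± 0.77 SE, edgeR adjusted p = 0.255). The kinases Lyn and Syk, which signal from the IgE receptor, were at 401.2 ± 100.9 and 138.7 ± 25.8 CPM on day 21, against 579.5 ± 55.0 and 213.7 ± 79.5 CPM in untreated mice (SD, n = 2 each) and were not past the threshold either (both adjusted p = 0.998). Tyrobp, the signalling chain of Trem2, was abundant at 21073 and 39528 CPM on day 21, against 14448 and 24914 CPM in untreated mice (adjusted p = 0.998).

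Markers of other cells were set beside these levels. Of 10 markers of monocyte-derived and interstitial macrophages, 9 were analysed, with a summed level of 1942 and 3068 CPM on day 21, against 40.7 and 109 CPM in untreated mice. Of its 6 tested members, 5 were called higher (C1qb, C1qc, Apoe, Trem2 and Pf4) and 0 lower, where 0.668% of all tested genes were called higher. C1qb and C1qc were listed at 0 in both untreated libraries, where Pf4 had 0 and 4 counts and Trem2 had 10 and 26. C1qb, C1qc, Pf4 and Trem2 passed the filter on low counts only through their day 21 counts, so the number called supports nothing. Apoe and Trem2 had counts in all 4 libraries. Apoe, a lipid-carrying protein of macrophages, was the most counted, at 1733 and 2716 CPM on day 21, against 28.5 and 78.5 CPM in untreated mice. With total counts only, with tags matching 1 gene and with the tag of most counts, 3 of the 6 were called (C1qb, C1qc and Apoe), and 0 of 7 tested were called without untreated replicate 1, where 5 had an unadjusted p under 0.05. DESeq2, run on all libraries, called 5. C1qa was at 10 and 7 counts on day 21, against 0 in untreated mice. Csf1r, the receptor of macrophage colony-stimulating factor, was at 34.2 and 58.4 CPM on day 21, against 7.36 and 18.0 CPM in untreated mice, and it was not past the threshold (edgeR adjusted p = 0.625). The summed level of these markers was higher in the same 2 libraries as that of Ms4a7, and their part in its level was not tested.

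Of 6 monocyte markers, 3 had counts, with a sum of 32.0 and 49.2 CPM on day 21, against 1.96 and 16.8 CPM in untreated mice. Ly6c2 gave 26.3 and 40.6 CPM of it on day 21, against 1.96 and 15.9 CPM in untreated mice, and Fn1, which encodes fibronectin, 4.57 and 7.13 CPM on day 21, against 0 and 0.818 CPM in untreated mice, while Plac8 and Vcan were listed at 0 in every library. Ly6c2 was not past the threshold (log2 difference 1.87 ± 0.82 SE, edgeR adjusted p = 0.740), but it was without untreated replicate 2 (log2 difference 4.07, edgeR adjusted p = 0.00772, the lowest of 12 alternatives, which reached 0.9998), and the part of monocytes in the Ms4a levels was not tested. The analysed markers of the cells that define other members of the family were at or near 0. Of 8 B cell markers only 4 were analysed. Cd79a and Cd79b were listed at 0 in every library, and Cd22 was at 0 and 0 CPM on day 21, against 0 and 1.23 CPM in untreated mice. All 4 analysed markers of mast cells and basophils (Kit, Cma1, Hdc and Gata2), of a list of 9, were listed at 0. Of 5 markers of granulocyte and monocyte progenitors, in which Ms4a3 is known, Mpo, Ctsg and Cebpe were listed at 0, and the list summed to 0 and 5.70 CPM on day 21, against 0 and 2.86 CPM in untreated mice. Of 7 T and NK cell markers 4 were analysed, and Cd2 alone of them had counts. It was at 14.8 and 12.8 CPM on day 21, against 63.3 and 129.6 CPM in untreated mice (log2 difference -2.80 ± 0.71 SE, edgeR adjusted p = 0.0691), while Cd3d, Nkg7 and Gzma were listed at 0. DESeq2 called Cd2 lower (log2 difference -2.78, DESeq2 adjusted p = 0.00952, the lowest of 12 alternatives, which reached 0.9998). The lung epithelium list, with 3 of 6 markers analysed, summed to 19.4 and 4.99 CPM on day 21, against 53.5 and 29.0 CPM in untreated mice. The list for hepatocytes or BNL cells, with only 2 of 5 markers analysed (Afp and Krt8), summed to 0 and 0 CPM on day 21, against 0 and 1.23 CPM in untreated mice. With so few markers analysed, the absence of these cells was not tested.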

How the data were processed

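The authors deposited raw tag counts per library, per the file headers, with a symbol and a RefSeq accession for each tag of 21 bases. The submitters' processing notes name the build mm9, while no source used here gives the tool that matched tags to genes or the rule behind the missing counts of 1. Tags were made with NlaIII and EcoP15I, per the labels' protocols, and amplified by PCR. The 4 tables list the same tags, and none holds a count of 1.

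Genes were named from the accession, else the symbol, through RefSeq (GRCm38.p6), and tag counts were summed. All 8 Ms4a symbols kept their name. Each tag, after CATG, was searched in GENCODE M21 transcripts (GRCm38). The fit over all genes used the quasi-likelihood test of edgeR 4.0.16 in R 4.3.3, after filterByExpr (minimum count 10, total 15) and TMM scaling. Group was the only term, and p-values were adjusted by Benjamini-Hochberg over 2993 genes, with a threshold of 0.05. The fit was also run on counts simulated from its own means and dispersions, with independent libraries. Such counts cannot test how the real libraries of a group spread, and nothing is read from that run. Standard errors are the log2 difference divided by the square root of F. The limit for a value listed at 0 is the largest count that leaves each listed tag at 0 or 1 reads with a probability of 5%. Intervals are Clopper-Pearson (scipy 1.17.1).

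Members and gene lists were chosen with earlier results of these data known. Named genes were all Ms4a members, the list genes of highest level or past the threshold, and the 5 genes closest to Ms4a7. Clec7a, C1qa, Csf1r, Krt79, the markers named at or near 0 and the genes next to the cluster were added after their values were seen. Alternatives were other scalings, DESeq2 1.42.0, filters, tag choices, a replicate block and leaving out each library. Single values of some list members are not reported here.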

Additional observations from a re-analysis of the deposited data

How the results depend on the processing

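The log2 difference of Ms4a7 ran from 4.06 to 5.12 over 12 alternatives, that of Ms4a6d from 1.45 to 2.20 and that of Ms4a8a from 0.58 to 1.76. None of the 3 changed sign, and none moved by more than the spread between libraries. With 2 libraries a group, leaving out 1 can hardly move a value by more than that spread, so this is no test of stability. The ends of these ranges came from leaving out 1 library. Ms4a7 was past the threshold in 11 of 12 alternatives and not without untreated replicate 1. Ms4a7 was chosen from this same contrast, so its calls are no support. The share of Ms4a7 ran from 71.8% to 80.4% on day 21 and from 14.0% to 41.7% in untreated mice. All of these limits but 80.4% are the values of single libraries. The number of called genes was less stable. From 22 it became 9 with total counts only, 41 with no filter on low counts, 11 with tags matching 1 gene and 9 with the tag of most counts, and it ran from 0 (without untreated replicate 1) to 81 (without untreated replicate 2) with 1 library left out. At 0 calls, 137 genes had an unadjusted p under 0.05, and DESeq2, run on all libraries, called 25. The cause was not tested. The replicate block gave 40 calls, 31 higher and 9 lower, with Clec7a, Cd2 and Krt79 among the lower ones. Replicates 1 of both groups deviated together (r = 0.54 across 2993 genes, which are not independent), but the labels tie no samples together. The median log2 difference of all tested genes was -0.29 with total counts only and -0.07 with TMM. Ms4a6b, Ms4a6c and the 3 members at 0 were limited by depth.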

Other observations

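The genes next to the Ms4a cluster were looked up by their order in RefSeq, a list made after the Ms4a values were seen. The nearest tested protein-coding genes on either side were taken, at most 5 per side and within 30 genes of the cluster, which gave 7 genes. In the edgeR fit over all genes 0 of them were called, 0 had an unadjusted p under 0.05, and DESeq2 called 0. The edgeR fit called only 0.735% of all tested genes in either direction, so nothing is read from 0 of 7. Their log2 differences ran from -0.94 (Ddb1, which encodes a DNA damage-binding protein) to 1.10 (Mpeg1, which encodes the macrophage pore-forming protein perforin-2), with 3 of 7 above 0 and a median of -0.06. Ddb1 lay 13 genes and Mpeg1 30 genes away from the cluster. Mpeg1 was at 251.1 and 405.4 CPM on day 21, against 93.7 and 211.8 CPM in untreated mice, and Slc15a3, a peptide and histidine transporter of lysosomes, at 48.5 and 79.8 CPM on day 21, against 66.7 and 54.0 CPM in untreated mice.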
